A study of Homo sapiens with 6 samples.

Results

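LINC RNAs are the long intergenic noncoding RNAs that carry a numbered LINC symbol, and they were described here in NOMO-1 cells, grown from a human acute myeloid leukaemia, with and without the RNA methyltransferase METTL16. The members were the genes of the deposited expression table whose symbol starts with LINC and a number and whose value was at least 1 in at least 2 of the 6 libraries. This gave 113 LINC RNAs of 205 rows with such a symbol and of 15059 genes in all. The members were thus selected on their signal in the same 6 libraries that are compared below, and their levels are a description.

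Total RNA depleted of ribosomal RNA was sequenced in 3 groups of 2 libraries each. Rescue cells carried a guide RNA against METTL16 (sgMETTL16) and overexpressed METTL16 from a vector (OE-METTL16). Knockout cells carried the same guide and the empty vector (EV). Control cells carried a non-targeting guide (sgNS) and the empty vector. All 3 groups were transduced with virus and selected with puromycin, and METTL16 or the empty vector had been introduced before the guide, so rescue is a parallel group and not a later time point. The labels do not say whether the cells were clones or pools, nor whether the 2 libraries of a group came from separate cultures, so p-values measure the spread between these libraries, which may be technical.

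A LINC symbol is given to a transcribed gene that lies between protein-coding genes and has no other established name or function. Such RNAs are usually made by RNA polymerase II, capped and often spliced, are present at few copies per cell, and many are trimmed or destroyed in the nucleus by the RNA exosome. METTL16 places N6-methyladenosine in U6 small nuclear RNA and in hairpins near the end of the MAT2A transcript, which encodes the S-adenosylmethionine synthetase of most tissues.

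The value of a gene in a library is called the signal here; it is an RSEM abundance per transcript length, and no source used here states whether it is TPM or FPKM. Unless an alternative is named, every change below is a difference of log2(signal + 1), which understates the change of RNAs of low signal. Every adjusted p is from limma, two-sided, with Benjamini-Hochberg adjustment over the genes of its fit. These were the 12734 genes tested, except that the fit with no filter used all 15059. The fit with a mean of at least 5 used only the genes with that mean. A gene was called at an adjusted p under 0.05. Depth was not stated and was estimated from short genes: a signal of 1 over a transcript of 1000 nt stood for 22.5 to 24.9 reads, a counting error of 20.0% to 21.1% per library.

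METTL16 itself had a signal of 12.3 and 12.1 in rescue cells, 6.05 and 5.83 in knockout cells, and 9.89 and 9.63 in control cells. Knockout was thus the lowest group, and its change against control was -0.63 ± 0.082 (SE, adjusted p = 4.76e-05). These whole-gene values do not tell the transcript of the edited gene from that of the vector. Of 11 markers of a monocytic line 9 were in the table and tested, and CD14 and MPO were not in it. The summed signal of the 9 was 343 to 350.0 in rescue, 458 to 460.0 in knockout and 279 to 298 in control cells. CEBPA was the highest of them in control cells (91.2 and 88.0), while CSF1R had 0.82 and 0.88 there and ITGAM 5.65 and 4.79. Of these 9, 8 were called higher in knockout against control, beside 26.2% of all genes tested. In rescue against knockout 7 were called lower, beside 15.9% of all genes. ITGAM was called in neither (-0.10, adjusted p = 0.491 in knockout against control). Of 8 lymphoid markers 4 were in the table, with a summed signal of 128 to 129 in rescue, 154 to 160 in knockout and 114 to 131 in control cells. Most of it was NKG7, with 126 and 125 in rescue, 155 and 148 in knockout and 128 and 112 in control cells. CD2, a T and natural killer cell adhesion molecule, had a signal of 0.79 and 0.64 in rescue, 3.02 and 2.86 in knockout and 0.74 and 0.64 in control cells. Of 7 erythroid and megakaryocytic markers 1 was in the table, and of 7 epithelial and kidney markers 2, the keratins KRT8 and KRT18, at a summed signal of 1.01 to 1.34 in rescue, 0.744 to 0.783 in knockout and 0.778 to 1.18 in control cells. The markers moved with the same contrasts as the LINC RNAs, and their part in the results below was not tested.

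The LINC RNAs were scarce. Together they made up 0.088% to 0.096% of the summed signal of a library, and their median mean signal was 2.21, against 2.09 for 326 antisense-named genes, 11.8 for 11000 protein-coding genes and 10.4 for all genes tested. Of the 113, 48 had a mean signal under 2, 54 one of 2 to 10, and 11 one of 10 or more. In 89 the signal reached 1 in all 6 libraries, and 5 reached it in the knockout libraries alone (LINC00324, LINC00862, LINC00945, LINC01011 and LINC01119), so that these 5 could enter only by being high in knockout. The 5 members closest to the limit were LINC00528, LINC01547, LINC01481, LINC00945 and LINC00324, with a second-highest library of 1.14, 1.13, 1.16, 1.17 and 1.14; the 5 rows closest outside it were LINC01560, LINC01337, LINC01260, LINC00266-1 and LINC00310, with 0.983, 0.958, 0.915, 0.913 and 0.906.

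GENCODE release 29 held 103 of the 113, of which it typed 59 as lincRNA, 13 as antisense, 12 as processed transcript and 9 as protein coding. RefSeq gives 29 of the 113 another symbol today, and 9 are protein-coding genes there. The set is thus one of symbols in use when the table was made, and not a single class of transcript.

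LINC RNAs were called in both directions in METTL16 knockout, in all at a share near that of all genes. Of the 113, 21 were called higher and 19 lower in knockout against control, and 73 were not called, with changes from -0.39 to 0.34. The background over all genes tested was 26.2% called higher and 13.5% lower, 39.7% in all, against 18.6%, 16.8% and 35.4% of the LINC RNAs. The median change was 0.06 among the LINC RNAs and 0.07 among all genes. Antisense-named genes, the other noncoding group named by symbol, had 42 higher and 45 lower of 326, and protein-coding genes 3062 and 1478 of 11000. Without the 5 that entered through knockout alone, 17 were higher and 19 lower. Control replicate 2 had the lowest scale of the 6 libraries (median ratio 0.923), and without it 6 were called higher and 17 lower of 113, where all genes had 18.6% and 17.7%. Dividing each library by its median ratio gave 20 higher and 25 lower LINC RNAs, and quantile normalization 16 and 25, with higher genes making up 49.3% and 49.7% of all genes called, against 65.9% as deposited.

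**Figure D1:**
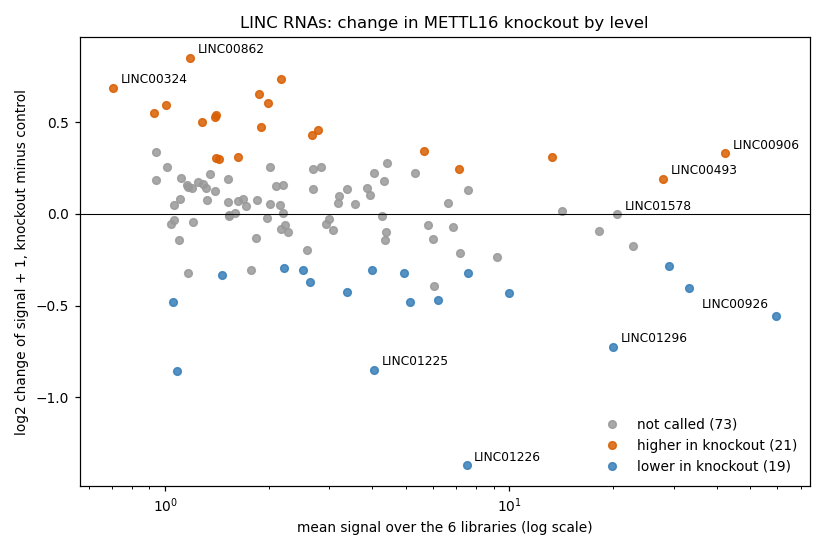
Change of the 113 LINC RNAs in METTL16 knockout by level. The x axis is the mean signal over the 6 libraries on a log scale, the y axis the log2 change of signal + 1, knockout minus control, and each point is 1 LINC RNA: 21 orange points were called higher, 19 blue points lower and 73 grey points were not called. Of the higher ones 13 lie under a mean signal of 2, while 3 of the lower ones do.

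The plot of change by level shows where the calls lay. Under a mean signal of 2, 13 of 48 were called higher and 3 lower, where all genes of that level had 25.2% and 5.29%; without the 5 members that reached 1 in knockout alone, the counts were 9 and 3 of 43. From 2 to 10 the counts were 5 and 12 of 54, against 23.0% and 10.8% of all genes. At 10 or more they were 3 and 4 of 11, against 28.7% and 17.6%. The median mean signal was 1.88 among the higher (1.99 without those 5), 4.93 among the lower and 2.17 among those not called. The 3 sets were close in build: the longest annotated transcript had a median of 2061 nt in the higher, 2524 nt in the lower and 2212 nt in those not called, with 3 exons each, and the median GC content was 49.98%, 48.6% and 48.7%.

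LINC01226 had the largest change of all LINC RNAs on the scale of log2(signal + 1). Its knockout mean was 0.330 times that of control, where LINC00977, of lower signal, had 0.246 times. The signal of LINC01226 was 7.27 and 8.04 in rescue, 3.92 and 3.46 in knockout, and 12.1 and 10.2 in control cells. No 2 groups overlapped, and rescue lay between the other two. The change in knockout against control was -1.37 ± 0.10 (SE, adjusted p = 3.83e-07). Rescue exceeded knockout by 0.88 (adjusted p = 3.65e-05). LINC01226 lies at chr1:31506226-31583306 on the plus strand (GRCh38, GENCODE 29), where it shares 3423 bases of the same strand with LINC01225 (chr1:31500085-31509648). Reads from the shared stretch cannot be assigned to one of them with certainty.

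LINC01225, which RefSeq lists as the pseudogene LDC1P, had a signal of 3.93 and 4.17 in rescue, 2.88 and 2.33 in knockout, and 5.61 and 5.35 in control cells. It showed the same order of groups as LINC01226, at a smaller change of -0.85 ± 0.10 (SE, adjusted p = 3.22e-05). In both RNAs the rescue mean lay about midway between the knockout and the control mean, above knockout by 50.3% of their difference for LINC01225 and 53.0% for LINC01226. They were the only ones under 60% among the 30 LINC RNAs that were called in both contrasts with opposite signs. That choice leaves out RNAs that came back little. LINC00467, called lower in knockout but not called in rescue against knockout, lay 31.2% of the way to control.

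LINC00926 was the most abundant LINC RNA. Its signal was 65.2 and 64.9 in rescue, 48.0 and 43.6 in knockout, and 71.7 and 63.9 in control cells. Both knockout libraries lay below all 4 others, and rescue lay within the range of control. The change in knockout against control was -0.56 ± 0.068 (SE, adjusted p = 3.12e-05), a mean 0.675 times that of control. The gene spans chr15:57300365-57307769 on the plus strand, 1084 bases from TCF12, which encodes a basic helix-loop-helix transcription factor.

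LINC01296 had a signal of 20.4 and 21.9 in rescue, 14.2 and 14.6 in knockout, and 26.1 and 22.9 in control cells, a change of -0.73 ± 0.078 (SE, adjusted p = 1.04e-05). RefSeq lists it as DUXAP9, a pseudogene with near-identical copies, so its reads may be shared among them. LINC00977 had 1.45 and 1.49 in rescue, 0.15 and 0.55 in knockout, and 1.34 and 1.51 in control cells, a change of -0.86 (adjusted p = 0.000228). The other 5 of the 10 largest falls were LINC01569, LINC00339, LINC01355, LINC00847 and LINC01184, with changes between -0.48 and -0.43, and in each the 2 knockout libraries lay below the 4 others. The 10 were chosen for their fall in these same libraries, which favours that order.

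LINC00847 had a signal of 10.9 and 11.4 in rescue, 7.86 and 7.77 in knockout, and 11.7 and 10.2 in control cells (adjusted p = 0.00134). LINC01355 had 6.32 and 6.86 in rescue, 4.84 and 4.85 in knockout, and 8.02 and 6.28 in control cells (adjusted p = 0.00336). LINC01569 had 1.13 and 1.31 in rescue, 0.56 and 0.74 in knockout, and 1.22 and 1.38 in control cells (adjusted p = 0.00448). In all 3 the rescue and control libraries overlapped, and knockout lay below them. LINC00339 had 5.73 and 5.36 in rescue, 4.36 and 3.57 in knockout, and 6.36 and 5.46 in control cells (adjusted p = 0.00315). Of the 9 smaller falls, those of LINC00426, LINC00938, LINC00638, LINC00467, LINC01276, LINC00884, LINC00662, LINC00894 and LINC00342, the adjusted p reached up to 0.0408.

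LINC00862 had the largest change upward on the scale of log2(signal + 1). Its signal was 0.83 and 0.91 in rescue, 1.99 and 2.01 in knockout, and 0.90 and 0.45 in control cells. It reached 1 in the knockout libraries alone, so under the rule for members both had to lie above all others. The change was 0.85 ± 0.13 (SE, adjusted p = 0.000175). It lies at chr1:200253419-200400705 on the minus strand, near the zinc finger gene ZNF281, which was not called (0.08, adjusted p = 0.434).

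LINC00324 had a signal of 0.555 and 0.628 in rescue, 1.14 and 1.21 in knockout, and 0.319 and 0.378 in control cells. With its single annotated transcript of 2082 nt, these values stood for about 27.9 and 31.2 reads in rescue, 56.4 and 58.1 in knockout, and 16.4 and 20.2 in control. LINC00324 also reached 1 in knockout alone, so its knockout libraries had to lie above all others. Rescue and control did not overlap either, and knockout had 3.37 times the mean signal of control (change 0.69, adjusted p = 0.000262). The gene is at chr17:8220642-8224043 on the minus strand, 778 bases from CTC1, a telomere-capping factor whose change was 0.25 (adjusted p = 0.0567).

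LINC00266-3 followed with 1.78 and 1.87 in rescue, 4.09 and 2.32 in knockout, and 1.57 and 1.36 in control cells, a change of 0.74 (adjusted p = 0.00211). Its 2 knockout libraries differed more from each other than those of rescue or control did, and without control replicate 2 its adjusted p was 0.0703, the highest over its alternatives (lowest 5.15e-10). RefSeq lists it as the pseudogene SEPTIN14P6, of a family with several copies. The other 7 of the 10 largest rises were LINC00260, LINC00539, LINC01119, LINC01011, LINC00921, LINC00337 and LINC01605, with changes from 0.66 down to 0.50. Of these, LINC00539, LINC01119, LINC00921, LINC00337 and LINC01605 were not called without control replicate 2, at adjusted p of 0.0507, 0.0637, 0.059, 0.104 and 0.0552, each the highest over its alternatives.

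LINC00260 had a signal of 1.32 and 1.62 in rescue, 2.81 and 2.72 in knockout, and 1.12 and 1.70 in control cells (adjusted p = 0.00108). LINC00539 had 1.92 and 1.26 in rescue, 2.80 and 2.89 in knockout, and 1.69 and 1.38 in control cells (adjusted p = 0.00209). LINC01119 had 0.72 and 0.74 in rescue, 1.40 and 1.75 in knockout, and 0.97 and 0.47 in control cells (adjusted p = 0.00393). In these 3 RNAs knockout lay above rescue and control, which overlapped, and the choice by the size of their rise favours that order. For LINC01119, which reached a signal of 1 in knockout alone, the place of knockout followed from the rule for members. LINC00888, which RefSeq names SNHG33, a small nucleolar RNA host gene, had 4.79 and 5.92 in rescue, 6.62 and 6.54 in knockout, and 5.24 and 4.71 in control cells (0.34, adjusted p = 0.0176).

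Among the RNAs that were not called, LINC01578 was the most level of the abundant ones. RefSeq names it CHASERR, a noncoding RNA known to restrain the chromatin remodeller gene CHD2 beside it. It had a signal of 19.8 and 21.4 in rescue, 20.3 and 20.5 in knockout, and 21.7 and 19.3 in control cells, a change of -0.0017 (adjusted p = 0.989).

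**Figure D2:**
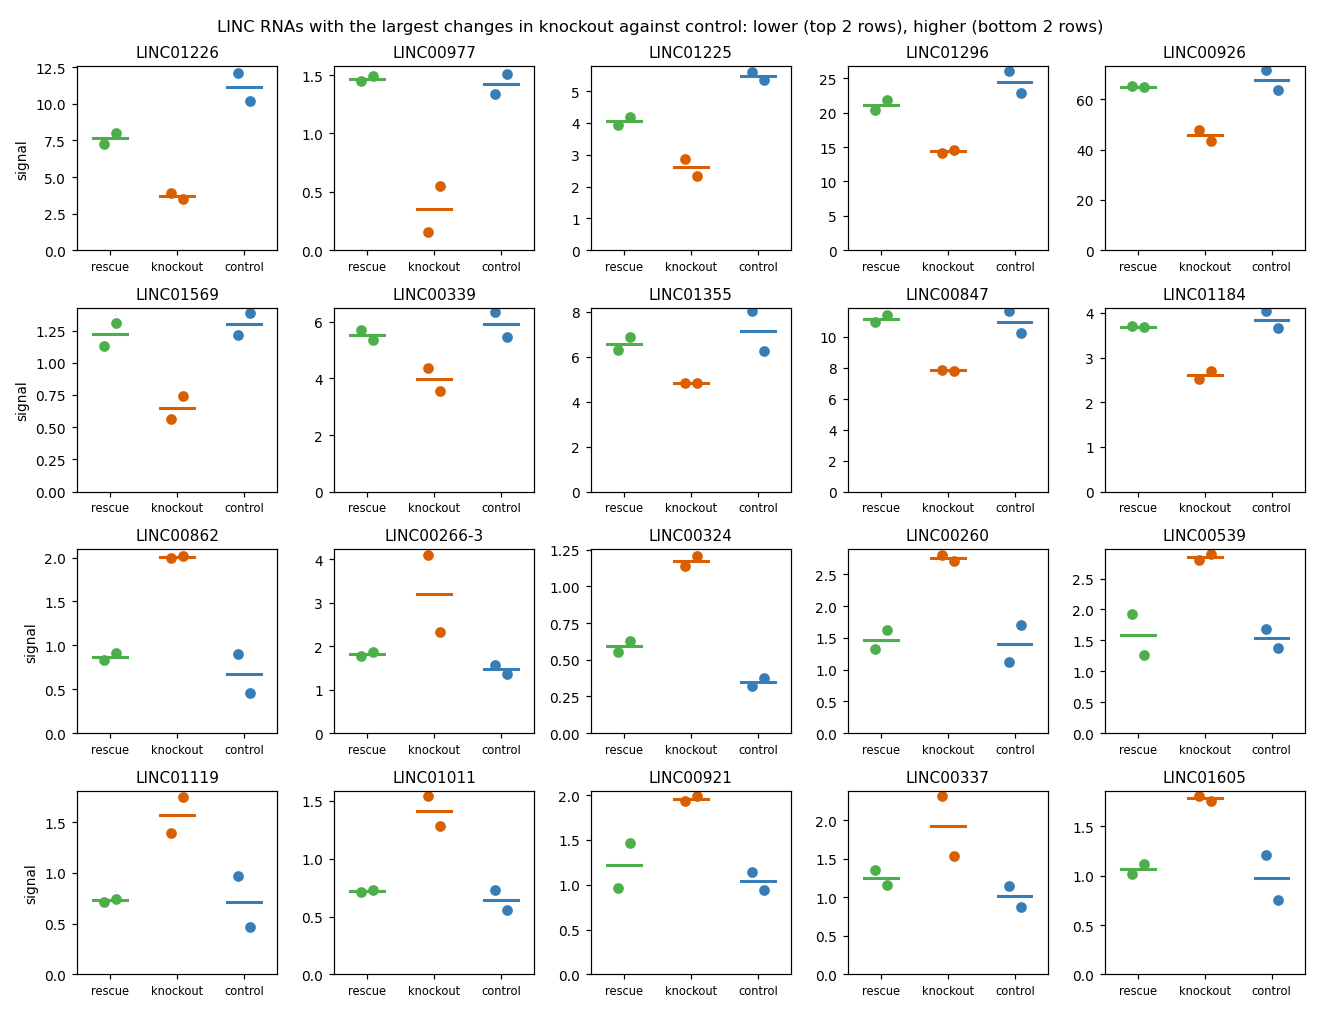
Signal of the 10 LINC RNAs with the largest falls (top 2 rows) and of the 10 with the largest rises (bottom 2 rows) in knockout against control. The y axes are the signal from 0, the points are the 2 libraries of rescue (green), knockout (orange) and control (blue), and the bars are the group means. In the 20 panels the 2 knockout libraries lie on one side of all 4 others, and the RNAs were chosen for the size of that change. LINC00324, LINC00862, LINC01011 and LINC01119 also became members only by being high in knockout.

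The promoters of 4 of these RNAs are shown because they are the 2 with the largest called change in each direction with a RefSeq promoter whose start (GRCh38.p14) lies within 50 bases of the GENCODE start. Each runs from 250 bases before to 50 after the start, 5′ to 3′ on the gene's strand, and the capitals mark a GC box (GGGCGG) or a CCAAT box on either strand. The first pair was higher and the second pair lower in knockout.
LINC00324 promoter, chr17:8223994-8224293, minus strand: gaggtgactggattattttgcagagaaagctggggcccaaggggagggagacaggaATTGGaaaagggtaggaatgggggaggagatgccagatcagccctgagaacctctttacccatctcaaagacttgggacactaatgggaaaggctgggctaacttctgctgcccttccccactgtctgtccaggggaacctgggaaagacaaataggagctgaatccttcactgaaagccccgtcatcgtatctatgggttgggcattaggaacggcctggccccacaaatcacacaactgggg
LINC00102 promoter, chrX:2615298-2615597, minus strand: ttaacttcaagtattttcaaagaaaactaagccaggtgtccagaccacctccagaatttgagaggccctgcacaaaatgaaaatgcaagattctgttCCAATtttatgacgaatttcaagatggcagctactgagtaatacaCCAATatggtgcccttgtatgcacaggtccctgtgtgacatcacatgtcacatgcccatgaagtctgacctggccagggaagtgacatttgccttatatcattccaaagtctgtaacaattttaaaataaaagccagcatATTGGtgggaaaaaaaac
LINC01569 promoter, chr16:4253740-4254039, minus strand: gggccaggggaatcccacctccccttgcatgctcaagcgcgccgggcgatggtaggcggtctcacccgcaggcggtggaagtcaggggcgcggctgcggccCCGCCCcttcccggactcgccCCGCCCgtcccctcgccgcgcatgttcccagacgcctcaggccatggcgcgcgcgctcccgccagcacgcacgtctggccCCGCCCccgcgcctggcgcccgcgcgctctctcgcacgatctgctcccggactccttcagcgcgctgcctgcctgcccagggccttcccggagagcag
LINC00847 promoter, chr5:180830707-180831006, plus strand: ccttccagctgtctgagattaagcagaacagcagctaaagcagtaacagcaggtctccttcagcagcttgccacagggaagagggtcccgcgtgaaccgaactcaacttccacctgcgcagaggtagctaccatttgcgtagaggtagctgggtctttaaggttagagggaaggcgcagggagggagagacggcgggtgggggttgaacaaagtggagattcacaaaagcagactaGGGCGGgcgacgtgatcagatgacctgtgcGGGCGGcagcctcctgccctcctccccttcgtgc
The higher pair held CCAAT boxes and no GC box, and the lower pair GC boxes and no CCAAT box. Over all 78 LINC RNAs with a promoter in the RefSeq table that pattern was not general: a GC box was found in 4 of 17 higher, 5 of 12 lower and 23 of 49 not called, and a CCAAT box in 5 of 17, 3 of 12 and 26 of 49. A GC box was in 41.0% of the LINC promoters and 44.6% of 27305 promoters of the same length, and a CCAAT box in 43.6% and 35.7%. TATAAA was in 10.3% and 11.95%, and CACGTG in 8.97% and 7.43%, searched on both strands. A match in letters is a description and does not show a bound site.

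Rescue against knockout also gave calls in both directions. In this contrast 20 LINC RNAs were called higher and 18 lower (17.7% and 15.9%), where the background was 15.6% and 15.9%, or 31.4% in all. Without knockout replicate 1 the counts were 17 and 10. The 2 contrasts share the knockout libraries, so that a high or low knockout value moves both. Of the LINC RNAs, 30 were called in both with opposite signs, 16 of them lower and 14 higher in knockout, beside 26.6% of all genes tested, and 0 were called in both with the same sign. Among these 30 the rescue mean lay a median 87.4% of the way to the control mean, counted from knockout, for the lower ones and 89.2% for the higher ones. These medians follow in part from the choice, since a call in rescue against knockout favours RNAs that came back far.

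The largest differences upward in rescue against knockout were those of LINC00977 (0.89), LINC01226 (0.88), LINC01276 (0.66), LINC00884 (0.54) and LINC01296 (0.52). LINC01276 had a signal of 10.0 and 9.30 in rescue, 5.59 and 5.86 in knockout, and 8.17 and 6.68 in control cells. LINC00884, on the strand opposite to the ATPase gene ATP13A3, had 3.17 and 3.14 in rescue, 1.79 and 1.91 in knockout, and 2.32 and 2.75 in control cells. In both, rescue was the highest group and knockout the lowest. The largest differences downward were those of LINC00862 (-0.68), LINC00260 (-0.61), LINC00539 (-0.58), LINC01119 (-0.57) and LINC00266-3 (-0.54, adjusted p = 0.0172). LINC00266-3 rested on knockout replicate 1, without which its change was -0.23 (adjusted p = 0.303), and it was not called in this contrast under quantile normalization, in the 2-group fit or without either control library (adjusted p 0.0645 to 0.0709).

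**Figure D3:**
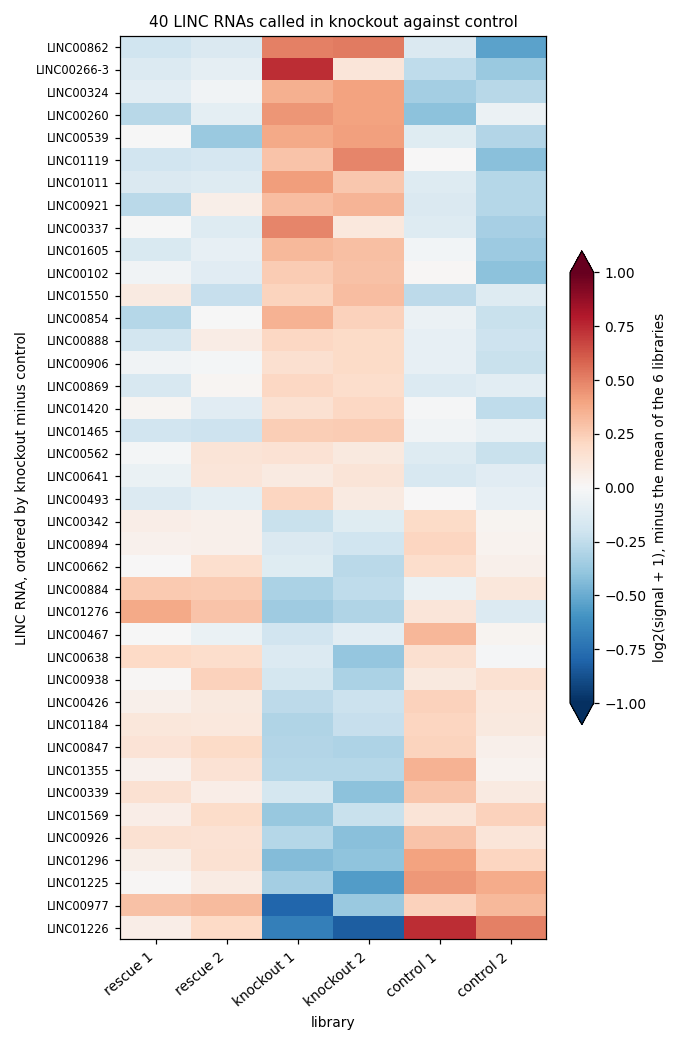
The 40 LINC RNAs called in knockout against control, ordered by their change from the most raised at the top. Columns are the 6 libraries, and colour is log2(signal + 1) minus the mean of the 6 libraries, red above and blue below. The knockout columns stand apart because these RNAs were chosen for that difference, and LINC01226 and LINC01225 are the rows in which rescue stays farthest from control.

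With the values as deposited, a call was made for 8 LINC RNAs in rescue against knockout alone, and this count is a description. Of all genes tested, 31.4% were called in that contrast, and 26.6% in both contrasts with opposite signs. The most abundant of the 8 LINC RNAs was LINC00152, known as CYTOR, a cytoplasmic RNA studied in many tumours. Its signal was 28.3 and 25.5 in rescue, 20.8 and 18.2 in knockout, and 23.7 and 20.7 in control cells, which put rescue above both other groups. Its change was 0.45 in rescue against knockout (adjusted p = 0.00154) and -0.18 in knockout against control (adjusted p = 0.117; 0.028 to 0.579 over its alternatives). It was called lower in knockout against control under median ratio scaling (-0.25), under quantile normalization (-0.23) and without knockout replicate 1 (-0.27).

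Rescue against control gave 0 calls in either direction among the 113 with limma, with 10 at an unadjusted p under 0.05. The background was 0.228% of genes called higher and 0.055% lower, 0.283% in all, and 11.5% at an unadjusted p under 0.05. LINC01226 came closest, with a change of -0.49 ± 0.10 (SE, adjusted p = 0.065), and it was called lower in rescue in a fit of these 2 groups alone (adjusted p = 0.000623; 0.000455 to 0.212 over its alternatives). Next were LINC01276 (0.34, adjusted p = 0.20), LINC01225 (-0.36, adjusted p = 0.20) and LINC00152 (0.27, adjusted p = 0.243). A p that misses the threshold with 2 libraries a group does not show that rescue and control cells were alike.

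Apart from LINC00926 and LINC00152, the 6 most abundant LINC RNAs were LINC00906, LINC00426, LINC00342 and LINC00493. LINC00906 had 41.0 and 41.4 in rescue, 47.1 and 48.2 in knockout, and 39.5 and 35.9 in control cells, and was higher in knockout (0.33, adjusted p = 0.00111). LINC00426 had 34.2 and 35.4 in rescue, 27.3 and 28.4 in knockout, and 38.9 and 35.5 in control cells, and was lower (-0.40, adjusted p = 0.000318). LINC00342 had 30.4 and 30.04 in rescue, 24.6 and 26.5 in knockout, and 33.1 and 29.5 in control cells, and was lower as well (-0.28, adjusted p = 0.00683). The knockout libraries of each lay outside the range of the other 4, at 1.26, 0.748 and 0.816 times the control mean.

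Some LINC genes encode a small protein, and 4 of 6 listed for this were in the table. LINC00493, now SMIM26, a mitochondrial small integral membrane protein, had 25.2 and 25.9 in rescue, 32.5 and 29.7 in knockout, and 27.9 and 26.3 in control cells (0.19, adjusted p = 0.0387), and was no longer called without control replicate 2 (adjusted p = 0.117; 0.0233 to 0.369 over its alternatives). LINC01420, now NBDY, whose product binds the decapping complex, had 13.4 and 12.2 in rescue, 14.8 and 15.4 in knockout, and 13.1 and 11.0 in control cells (0.31, adjusted p = 0.0139; 0.0882 without control replicate 2, and 0.00196 to 0.0882 over its alternatives). LINC00116, now MTLN, the gene of the mitochondrial microprotein mitoregulin, had a change of 0.22 (adjusted p = 0.0752; 0.0203 to 0.288 over its alternatives). LINC00998, now SMIM30, had a change of -0.22 (adjusted p = 0.128; 0.0223 to 0.617 over its alternatives). It was called lower under quantile normalization (-0.29), median ratio scaling (-0.28) and without control replicate 2 (-0.37). As deposited, 2 of the 4 were called, both higher in knockout, beside 26.2% of all genes.

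Neighbouring protein-coding genes were compared because some LINC RNAs start beside a coding gene and share its start region. A tested coding gene lay within 50 kb of 70 LINC RNAs, and none did for 33 of those with coordinates. Of the 70, 28 were called in knockout against control; in 13 of these pairs the neighbour was called too, in 9 the same way, and in 15 it was not. These shares are near the 39.7% of all genes called, so the pairs are a description. Across the 70 pairs Pearson's r between the changes was 0.21 and Spearman's rank correlation 0.20, over genes that share the same 6 libraries.

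LINC00847 and ZFP62, a zinc finger gene 11885 bases away, were both lower: ZFP62 had 8.75 and 9.26 in rescue, 6.62 and 6.07 in knockout, and 10.1 and 9.22 in control cells (-0.53, adjusted p = 0.000353). LINC00467 and TRAF5, a tumour necrosis factor receptor adaptor, were both lower too (TRAF5 -0.51, adjusted p = 0.000479). LINC00926 and TCF12 moved alike (TCF12 -0.23, adjusted p = 0.0126). LINC00426 and KATNAL1, a katanin subunit that severs microtubules, moved in opposite directions, with KATNAL1 higher in knockout (0.35, adjusted p = 0.0118).

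In 13 pairs the LINC RNA started within 2000 bases of the coding gene on the other strand. Of these LINC RNAs, 4 were called, beside 39.7% of all genes: LINC01184 beside SLC12A2, LINC00938 beside ARID2 and LINC00894 beside CXorf40B were lower, and LINC00337 beside ICMT was higher. None of these 4 partners was called, with changes of 0.21, 0.04, 0.06 and -0.10 (adjusted p 0.0841, 0.732, 0.502 and 0.276). LINC01184 had 3.71 and 3.67 in rescue, 2.52 and 2.70 in knockout, and 4.04 and 3.66 in control cells.

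**Figure D4:**
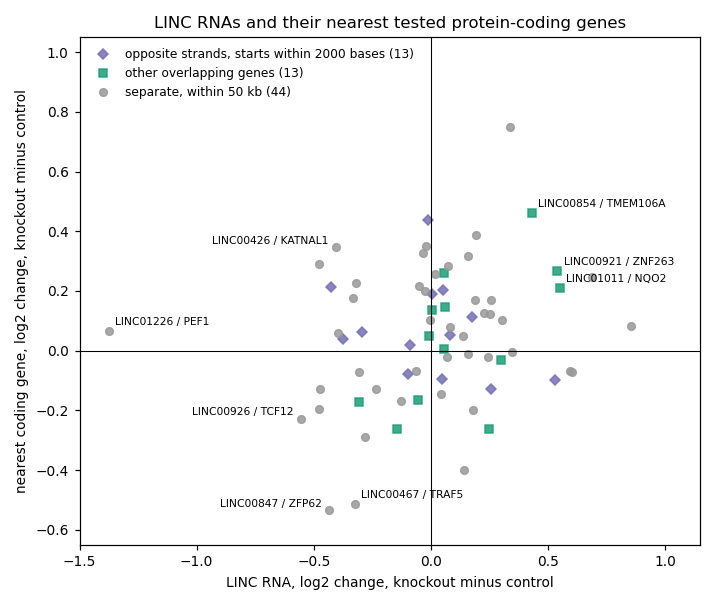
Change of 70 LINC RNAs (x axis) and of their nearest tested protein-coding gene within 50 kb (y axis), each as the log2 change of signal + 1 in knockout against control. Purple diamonds are the 13 pairs on opposite strands with starts within 2000 bases, green squares other overlapping genes, and grey circles separate genes. Points lie in all 4 quadrants, and LINC01226, at the far left, lies beside PEF1, whose change was 0.07.

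Some pairs may share reads, since their gene bodies, introns included, overlap. Whether their exons overlap was not examined. LINC01011 starts 20 bases from NQO2, a quinone reductase, and LINC00921 57 bases from ZNF263, each on the same strand and overlapping. Both neighbours were higher in knockout as well (0.21 and 0.27, adjusted p = 0.0476 and 0.0328). In rescue against knockout neither neighbour was called (0.03 and -0.21, adjusted p = 0.824 and 0.0989). LINC01011 was lower there, with changes from -0.87 to -0.40 over its alternatives. In all, 12 LINC RNAs overlapped a tested gene on the same strand and 20 one on the opposite strand. The library kit keeps the strand, but no source used here states the strand setting of the counting. The values of these overlapping RNAs are therefore uncertain.

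The nonamer that METTL16 methylates in U6 and in the MAT2A hairpins was searched in the spliced GENCODE transcripts of the 103 LINC RNAs with one, on the transcript's strand. UACAGAGAA was found in 3, or 2.91%, against 5.11% of 12174 tested genes, and UACAGAAAA in 5, or 4.85%, against 7.28%. The median longest transcript was 2347 nt for the LINC RNAs and 3371 nt for all genes, and a longer transcript has more room for a match. The sites are printed with 10 bases on each side, the nonamer in capitals, beside 1 MAT2A site of each form for comparison; the site of LINC01605 is not shown here.
LINC01572, chr16:72349194-72349202, minus strand: uaaaagguucUACAGAGAAggcaaagauu
LINC01128, chr1:859189-859197, plus strand: uuuuagaaagUACAGAGAAggaaauuuua
LINC00938, chr12:45722427-45722435, minus strand: aauauauucuUACAGAAAAuuuuagauua
LINC00174, chr7:66395890-66395898, minus strand: agugcuggaaUACAGAAAAuggauggaca
LINC00493, chr20:18569345-18569353, plus strand: uuguuccaaaUACAGAAAAgauccucaac
LINC00641, chr14:21200674-21200682, minus strand: auaauuuacaUACAGAAAAucacacaaau
LINC00094, chr9:134030558-134030566, plus strand: augcacaucaUACAGAAAAguaacauuuu
MAT2A, chr2:85544784-85544792, plus strand: cugguguagcUACAGAGAAaccagcuucc
MAT2A, chr2:85545014-85545022, plus strand: caagguguccUACAGAAAAaccuuggguu
Of the 3 LINC RNAs with UACAGAGAA, LINC01605 was called higher in knockout and LINC01572 and LINC01128 were not called. Of the 5 with UACAGAAAA, LINC00493 and LINC00641 were called higher, LINC00938 was called lower, and LINC00174 and LINC00094 were not called. Of all genes 26.2% were called higher and 13.5% lower, and these counts are a description. The adjusted p in limma was 0.0387 for LINC00493 and 0.0494 for LINC00641, near the threshold, 0.00553 for LINC01605 and 0.0161 for LINC00938. LINC00938 had a signal of 2.63 and 3.23 in rescue, 2.18 and 1.88 in knockout, and 2.86 and 2.99 in control cells. A match in letters does not show methylation, which was not measured, and LINC01226 and the others of the 10 largest falls had neither form in their annotated transcripts where these were known.

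The machinery that limits long noncoding RNAs was measured in the same libraries. Of 13 genes of the nuclear exosome, which degrades RNA from its 3′ end, 2 were lower and 2 higher in knockout against control, where 13.5% of all genes were lower and 26.2% higher, and the median change was -0.05 against 0.07 over all genes. EXOSC2, a cap subunit of the exosome, had a signal of 31.5 and 29.2 in rescue, 16.6 and 16.1 in knockout, and 30.1 and 28.0 in control cells (-0.79, adjusted p = 1.95e-06). EXOSC5, a core subunit, was also lower (-0.23, adjusted p = 0.0175), while the nucleases DIS3 (0.27, adjusted p = 0.00761) and EXOSC10 (0.18, adjusted p = 0.0356) were higher. In rescue against knockout 4 of the 13 were higher and 0 lower, beside 15.6% and 15.9% of all genes.

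In the other lists, read against the 26.2% of all genes called higher and 13.5% lower, the counts in knockout against control were as follows. Of 8 exosome adaptors 0 were called by limma, and 0 had an unadjusted p under 0.05. Of 5 cap-binding and ARS2 genes, NCBP2, the small subunit of the nuclear cap-binding complex, was lower (-0.34, adjusted p = 0.00097), and ZC3H18, which links that complex to the exosome, was higher (0.19, adjusted p = 0.0443). Integrator, which ends transcription of many noncoding genes, had 2 higher and 0 lower of 13 tested. Nonsense-mediated decay genes had 3 higher and 1 lower of 10, and genes of termination and decapping 1 and 1 of 6. Whether these changes bear on the levels of the LINC RNAs was not tested.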

How the data were processed

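Total RNA of 6 NOMO-1 libraries was sequenced. Per the labels' protocols, RNA was extracted with QIAzol, depleted with Ribo-Zero, made into stranded TruSeq libraries and sequenced on an Illumina HiSeq. STAR, RSEM and GRCh38 are named in the submitters' processing notes, with no versions. The authors deposited 1 abundance value per gene and library, used here as the signal with no rescaling; its kind (TPM or FPKM) is not given in the sources used here. Groups came from the labels.

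The filter was a signal of 1 or more in 2 or more libraries, which kept 12734 of 15059 genes. limma 3.58.1 in R 4.3.3 was fitted with a trend to log2(signal + 1) over all 6 libraries (3 residual and 11.0 prior degrees of freedom) and tested on simulated data. Alternatives were pseudocounts of 0.1 and 0.5, no filter, a mean of at least 5, quantile normalization, median ratio scaling, no trend, 2-group fits, a replicate block and each library left out; leaving out the members that reach 1 in 1 group alone was added after seeing the data. The place of rescue between knockout and control is in percent of the difference in mean signal. Depth was estimated as the step whose multiples the signal times length (less 50 nt) of genes up to 400 nt fell on; 72.1% to 79.5% of values under 4.5 reads came within 0.15 of an integer; a step set in advance would give 30% by chance, and this one was picked from the same values. Estimates of reads cover counting error only.

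Members matched GENCODE 29 by symbol (88), current symbol (10) or gene ID (5), and 10 had no match. The promoter sequences are from RefSeq (GRCh38.p14), which held 78 members; sites were cut from the GENCODE transcripts. Members and lists were chosen with earlier results of these data known. The members named are the 6 most abundant, up to 10 per direction in knockout against control, up to 5 per direction in each contrast with rescue, those nearest the limit of 1, the small-protein genes, and partners of divergent starts; LINC01578, LINC00888, LINC01225 and LINC01226 in rescue against control, the overlapping pairs, the neighbours called with their LINC RNA, the members with a nonamer and LINC00102 were singled out after their values were seen. The rest ran in Python 3.11.15 with pandas 2.3.3, numpy 2.4.6 and, for plots, matplotlib 3.10.9.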

Additional observations from a re-analysis of the deposited data

How the results depend on the processing

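With a mean of at least 5, 30.1% of all genes were called higher and 17.9% lower in knockout against control. In rescue against knockout the shares were 21.8% and 18.5%, and in rescue against control 2.20% and 0.351%. That setting leaves 27 LINC RNAs, of which 15 were called in knockout against control, 16 in rescue against knockout and 3 in rescue against control. Leaving out 1 library gave 23 to 42, 27 to 37 and 0 to 2; the lowest, 23 (6 higher and 17 lower), came without control replicate 2, which kept 6 of the 21 higher and 16 of the 19 lower. In rescue against control, quantile normalization and the fit of the 2 groups each called 1, LINC01226. Of all genes quantile normalization called 0.149% higher and 0.110% lower there, and the fit of the 2 groups 1.70% and 0.558%. The labels do not say whether the replicate numbers pair the libraries. The deviations of same-numbered libraries from their group means correlated at 0.10, -0.05 and -0.01, which cannot exclude a pairing. The replicate block gave 46, 45 and 3 calls. Of all genes it called 28.3% higher and 14.7% lower in knockout against control, and 17.4% and 17.8% in rescue against knockout. In rescue against control it called 2.35% and 0.652% of all genes. Without the 5 members that reach 1 in knockout alone, 36 and 33 were called. Quantile normalization moved the higher share of the called LINC RNAs to 39.0%, against 52.5% as deposited. It moved that of all genes called to 49.7%, against 65.9% as deposited. Apart from the mean of at least 5, all alternatives in knockout against control kept 5 of 21 higher (LINC00260, LINC00324, LINC00862, LINC00906, LINC01011) and 11 of 19 lower calls; LINC00324, LINC00862 and LINC01011 had entered only by being high in knockout. Among the values of named LINC RNAs, 49 lost and 36 gained a call and 0 reversed. At a mean signal under 2, counting error alone is a limit.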

Other observations

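The 92 rows with a LINC symbol that did not reach a signal of 1 in at least 2 libraries were tested only in a fit with no filter. There 15 of the 92 were called higher and 1 lower in knockout against control, where all genes of that fit had 23.2% and 11.0%. LINC00582 had a signal of 0.62 and 0.50 in rescue, 1.43 and 0.83 in knockout, and 0.13 and 0.28 in control cells (0.81, adjusted p = 0.000642 in limma). LINC01126, the only lower one, had 0.96 and 0.77 in rescue, 0.56 and 0.44 in knockout, and 0.85 and 0.75 in control cells (-0.26, adjusted p = 0.0476 in limma). These values lie at few reads, and both were named after their values were seen.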
